A study of Mus musculus with 10 samples.

Results

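The simple epithelial keratins Krt7, Krt8, Krt18 and Krt19, with the stratified epithelial keratin Krt14, were examined as chromatin loci in the developing mouse heart. Every ATAC-seq peak whose summit lay inside 1 of these 5 genes or within 25 kb of it was taken, which gave 439 of 1071660 summits in 9 peak lists. After overlapping summits were merged into fixed windows of 250 bp on either side of a summit, the loci held 73 of 184764 regions. The Krt8 and Krt18 windows overlap on chromosome 15 and share 14 regions, so that they are described as 1 locus of 28 regions. The Krt7 locus, on the same chromosome, held 17 regions, the Krt19 locus on chromosome 11 held 18, and the Krt14 locus, also on chromosome 11, held 10. At the 8 edges of these windows the nearest region inside lay 0.97 to 15.03 kb from the edge, and the nearest region outside lay 0.79 to 19.53 kb from it.

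Keratins form intermediate filaments as obligate pairs of a type I and a type II chain. Krt8 and Krt7 are type II chains, and Krt18, Krt19 and Krt14 are type I chains. KRT8 and KRT18 make up the filaments of simple epithelia, KRT7 and KRT19 mark ductal and mesothelial linings, and KRT14, the usual partner of KRT5, belongs to the basal layer of stratified epithelia. The filaments are anchored to desmosomes by plakins, and loss of keratins in favour of vimentin accompanies epithelial-to-mesenchymal transition (EMT). The epicardium, the mesothelial cover of the heart, undergoes EMT to yield epicardium-derived cells (EPDCs).

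All cells came from pooled hearts of C57BL/6J embryos carrying Rosa26tdTomato and Wt1CreERT2/+, in which tamoxifen marks Wt1-expressing cells and their descendants with tdTomato. Epicardium was sorted as CD31- tdTomato+ PDPN+ cells at E11.5 and at E17.5, with 3 libraries each. EPDCs were sorted as CD31- tdTomato+ PDPN- cells, with 1 library at E12.5 and 2 at E13.5, of which replicate 2 joins a pair of technical replicates in 1 list. No EPDC library shares a stage with an epicardial library, and the EPDC lists hold 55 to 87 summits on chromosome Y where the epicardial lists hold 2 to 5, so that cell population, stage and list making cannot be told apart. In sorted pools, a change in the share of cells with an open region and a change of openness within each cell cannot be told apart either. The sort itself used PDPN, and no gene of the keratin loci was used to select cells.

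ATAC-seq marks open chromatin by the insertion of adapters with the Tn5 transposase. The level of a region is given here as normalized fragments: the whole number of fragments covering the strongest summit in the region, recovered from the peak caller's statistics and divided by a size factor of the library. Lists held 94909 to 142743 summits on the main chromosomes, with a most frequent background of 2.07 to 10.9 fragments per position. A region with no called summit is given as 0, which does not mean closed chromatin: the site was below the peak caller's threshold or, where said, under a wider peak interval whose summit lay elsewhere. Before tests, all values under a common floor of 20.4 normalized fragments were raised to it. Against a group with all libraries at 0, a fold is given only where no peak interval covered the site, as the other group's geometric mean over this floor. Regions above the floor in at least 3 libraries were tested with limma over all 115124 such regions, and differences are on the log2 scale with Benjamini-Hochberg adjusted p-values. Of the 73 keratin regions, 54 could be tested. Of these, 14 were above the floor in libraries of 1 group alone, and since such a region entered the test only through the group where it is high, its levels are given without a p-value.

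The sequences under the summits on which the results turn are given here as 201 bases centred on the summit, read from the RefSeq copy of GRCm38.p6 (the mm10 build) on the strand of the nearest keratin gene. Capitals mark exact matches, on either strand, to TGCTGA (part of the MAF recognition element), TGANTCA (AP-1), CAGCTG (E-box), GGAATG (TEAD), AGATAA (for GATA factors) and GGGCGG (for SP and KLF factors). The promoters of the 5 genes are shown because their levels are compared first. The windows of Krt8 and Krt18 hold no match.
Krt8 promoter, chr15:102004317-102004517, minus strand: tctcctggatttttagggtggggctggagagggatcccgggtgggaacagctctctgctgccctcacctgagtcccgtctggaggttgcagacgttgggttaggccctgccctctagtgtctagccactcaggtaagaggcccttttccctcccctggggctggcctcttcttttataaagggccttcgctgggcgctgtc
Krt18 promoter, chr15:102028080-102028280, plus strand: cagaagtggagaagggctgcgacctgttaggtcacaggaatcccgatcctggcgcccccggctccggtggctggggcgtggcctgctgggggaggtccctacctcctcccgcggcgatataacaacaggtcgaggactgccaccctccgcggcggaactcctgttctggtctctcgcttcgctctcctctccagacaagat
Krt7 promoter, chr15:101412311-101412511, plus strand: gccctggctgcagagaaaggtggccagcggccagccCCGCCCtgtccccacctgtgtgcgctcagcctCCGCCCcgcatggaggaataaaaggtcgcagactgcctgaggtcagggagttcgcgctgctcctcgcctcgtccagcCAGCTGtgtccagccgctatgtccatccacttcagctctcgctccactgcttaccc
Krt19 promoter, chr11:100146052-100146252, minus strand: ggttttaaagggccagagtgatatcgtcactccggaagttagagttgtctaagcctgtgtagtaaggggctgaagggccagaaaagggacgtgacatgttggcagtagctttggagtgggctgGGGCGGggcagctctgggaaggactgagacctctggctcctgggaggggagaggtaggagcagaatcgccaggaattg
Krt14 promoter, chr11:100207591-100207791, minus strand: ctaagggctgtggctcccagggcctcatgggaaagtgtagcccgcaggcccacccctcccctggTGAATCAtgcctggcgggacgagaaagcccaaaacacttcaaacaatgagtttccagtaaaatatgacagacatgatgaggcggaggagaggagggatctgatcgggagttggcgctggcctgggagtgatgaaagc

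The distal sequences shown are a pair of Krt19 regions called at E17.5 alone, the strongest distal region of Krt19, the intergenic region with the greatest loss in EPDCs in the Krt8 and Krt18 locus, and the region of that locus called in EPDCs alone.
Krt19, 4.2 kb downstream of the start, chr11:100141834-100142034, minus strand: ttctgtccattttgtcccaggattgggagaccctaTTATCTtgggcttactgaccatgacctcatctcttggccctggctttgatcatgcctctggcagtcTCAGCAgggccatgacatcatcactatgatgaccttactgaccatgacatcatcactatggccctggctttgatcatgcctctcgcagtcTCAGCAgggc
Krt19, 1.7 kb upstream, chr11:100147691-100147891, minus strand: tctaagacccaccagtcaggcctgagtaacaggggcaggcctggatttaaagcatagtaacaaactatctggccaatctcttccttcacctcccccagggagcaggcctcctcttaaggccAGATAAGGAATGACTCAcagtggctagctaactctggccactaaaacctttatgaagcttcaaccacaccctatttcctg
Krt19, 22.2 kb upstream, chr11:100168230-100168430, minus strand: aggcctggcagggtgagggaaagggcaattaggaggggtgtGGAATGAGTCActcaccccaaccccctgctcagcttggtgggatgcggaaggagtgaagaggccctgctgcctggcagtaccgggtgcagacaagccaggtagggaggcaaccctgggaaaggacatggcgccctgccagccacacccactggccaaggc
Krt18, 10.1 kb upstream, chr15:102017981-102018181, plus strand: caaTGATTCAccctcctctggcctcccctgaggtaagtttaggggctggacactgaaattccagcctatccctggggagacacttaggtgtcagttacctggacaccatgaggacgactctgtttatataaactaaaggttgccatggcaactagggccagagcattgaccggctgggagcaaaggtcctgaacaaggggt
Krt18, 20.8 kb downstream, chr15:102048898-102049098, plus strand: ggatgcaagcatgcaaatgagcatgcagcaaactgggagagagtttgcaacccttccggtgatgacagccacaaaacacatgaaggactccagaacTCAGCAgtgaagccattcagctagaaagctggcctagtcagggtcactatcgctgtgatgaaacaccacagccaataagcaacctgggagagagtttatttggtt

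Promoter accessibility of the 5 genes was compared between the epicardial stages and between epicardium and EPDCs. The promoters of Krt8, Krt18, Krt7 and Krt19 were higher at E17.5 than at E11.5 and lower in EPDCs than in epicardium, except by log2 fold enrichment, where the Krt19 promoter changed sign (-0.41 for stage, adjusted p = 0.0907, and 0.62 for EPDCs, adjusted p = 0.00766) and the Krt18 promoter missed the threshold in both comparisons (0.58, adjusted p = 0.0956, and -0.13, adjusted p = 0.625). The Krt19 stage difference also changed sign on rank scales and was 0.07 (adjusted p = 0.678) with the depth-normalized peak score. The Krt14 promoter was called at E17.5 alone. Higher levels at E17.5 were common among promoters: of 15074 tested promoters of protein-coding genes 44.9% were higher and 10.6% lower at E17.5, whereas 25.7% were higher and 15.6% lower in EPDCs.

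**Figure D1:**
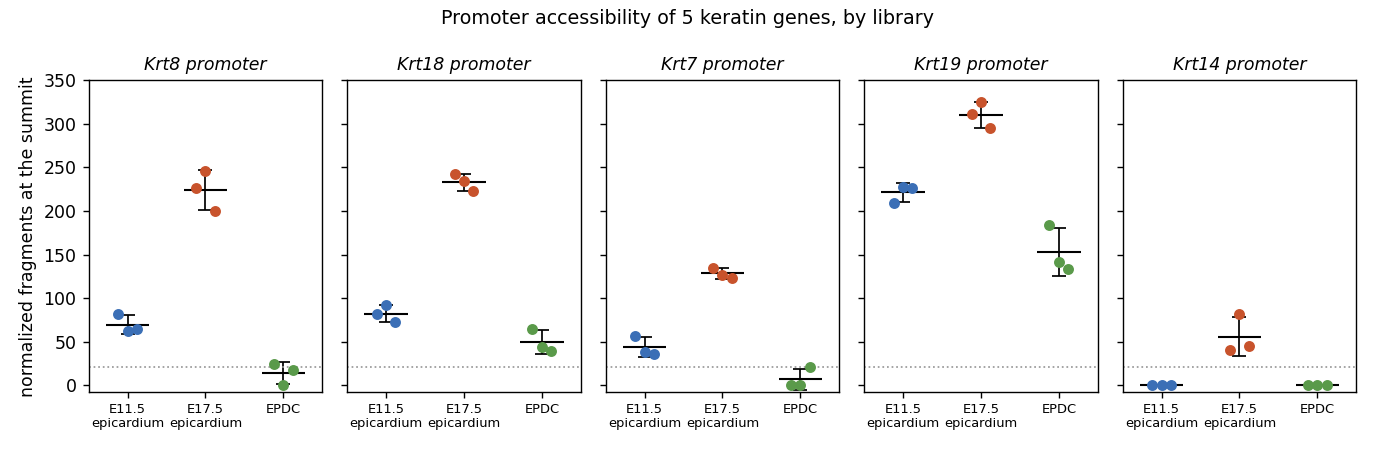
Normalized fragments at the promoter summit of each keratin gene (y axis) in the 3 populations (x axis); points are libraries, horizontal bars with whiskers the mean and SD of 3 libraries, and the dotted line the floor of 20.4. The E17.5 libraries lie above the other 6 at every promoter, and Krt14 is called at E17.5 alone.

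The Krt8 promoter region lies over the 5′ UTR, with its summit 65 bp downstream of the start and inside an intron of the lncRNA gene Gm36026 on the opposite strand. It held 81.7, 62.4 and 64.6 normalized fragments in the E11.5 libraries, 226, 246 and 200.0 at E17.5, and 24.2, 0 and 17.6 in EPDCs. The 3 groups did not overlap. The stage difference was 1.69 (SE 0.153, adjusted p = 2.9e-05), a 3.23-fold rise. The EPDC difference from the mean of both stages was -2.52 (SE 0.133, adjusted p = 9.21e-07).

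Krt18, which encodes the partner chain of KRT8, had its promoter summit exactly at the annotated start. The promoter held 81.7, 92.1 and 72.5 normalized fragments at E11.5, 242, 234 and 223 at E17.5, and 65.0, 43.6 and 39.5 in EPDCs. The E17.5 libraries stood far above the rest, while the highest EPDC library came close to the lowest E11.5 library. The difference was 1.51 (SE 0.184, adjusted p = 0.000148) for stage and -1.52 (SE 0.159, adjusted p = 4.68e-05) for EPDCs. By log2 fold enrichment neither passed (0.58 and -0.13). At the Krt18 promoter the EPDC difference was -0.76 (adjusted p = 0.00704) from E11.5 and -2.27 (adjusted p = 7.31e-06) from E17.5, beside -1.68 and -3.37 at the Krt8 promoter (adjusted p = 3.4e-05 and 3.19e-07).

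Krt7, a type II keratin of ducts and mesothelium, showed the same order of groups at a lower level. Its promoter, over the 5′ UTR, held 56.7, 37.6 and 36.3 normalized fragments at E11.5, 135, 127 and 123 at E17.5, and 0, 0 and 20.7 in EPDCs. The E17.5 libraries stood apart from the other 6, and the EPDC libraries were at or below 20.7. In the EPDC libraries at 0 a peak interval covered the site, with its summit upstream, and counted by any overlap the differences were 1.1 for stage and -2.1 for EPDCs (adjusted p = 0.000202 and 1.42e-06). The stage difference was 1.59 (SE 0.18, adjusted p = 9.8e-05) and the EPDC difference -1.85 (SE 0.156, adjusted p = 1.31e-05). A second summit, 494 bp upstream, was present in all 3 E11.5 libraries at 44.6 to 54.5 normalized fragments and in 1 of 3 E17.5 libraries at 65.0, although a peak interval covered the site in all 9 libraries. In EPDCs this summit held 20.4, 16.8 and 19.5, which was lower than in epicardium (-0.93, SE 0.336, adjusted p = 0.0382), but the call was lost with any 1 E11.5 or EPDC library left out (adjusted p up to 0.0976) and the sign changed by fold enrichment.

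Krt19, a type I keratin without a tail domain, had the most accessible promoter of the 5 in all 9 libraries. The summit lay 32 bp upstream of the main start, inside an intron of a longer noncoding Krt19 transcript. It held 209, 228 and 227 normalized fragments at E11.5, 312, 325 and 295 at E17.5, and 184, 142 and 133 in EPDCs. The groups did not overlap, but the spread between them was narrower than at Krt8, Krt18 or Krt7. The difference was 0.49 (SE 0.119, adjusted p = 0.00704), or 1.4-fold, for stage and -0.79 (SE 0.103, adjusted p = 0.000171) for EPDCs. In EPDCs the Krt19 promoter stood higher than 53.7% of 21827 protein-coding promoters, against 37.1% for Krt18, 32.7% for Krt7 and 32.2% for Krt8 (by the mean of the strongest summit within 1 kb of a start). At E17.5 the same ranks were 76.5% for Krt19, 65.1% for Krt18, 63.8% for Krt8 and 49.4% for Krt7.

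Krt14, the basal-layer keratin, had no promoter summit in any E11.5 or EPDC library. At E17.5 its promoter region, 143 bp upstream of the start, held 40.6, 81.2 and 44.7 normalized fragments. Their geometric mean was 2.59-fold above the floor, with replicate 2 well above the others. Between E11.5 and EPDCs no difference could be seen, as both were below the floor.

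Across the 73 regions, more keratin regions gained than lost accessibility between E11.5 and E17.5. Of the 54 tested, 26 (48.1%) were higher at E17.5, beside 22.1% of all tested regions, and 8 (14.8%) were lower, beside 30.1%. On other scales the higher and lower counts were 16 and 11 by rank percentile, 19 and 10 by rank among equal numbers of summits, 19 and 12 by depth-normalized score, and 14 and 10 by fold enrichment. The shares of all regions called on these scales were not taken. Whether the keratin regions exceed them there was therefore not read. Scaled to genome background, 30 were higher and 7 lower, beside 31225 higher and 25001 lower of all 115124 tested regions. Of the calls over all those regions, 55.5% were higher, against 42.4% with the main scaling. The median difference was 0.46 over the keratin regions and -0.07 over all tested regions. A region that passes the floor only through its high group has to be higher in that group. Among the 40 keratin regions above the floor in libraries of 2 or 3 groups, 15 were higher and 6 lower at E17.5, beside 20.7% and 29.7% of all such regions. Among the 16 above the floor in all 9 libraries, 6 were higher and 1 lower, beside 27.5% and 24.4%. The 19 untested keratin regions were above the floor in fewer than 3 libraries.

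By locus, regions above the floor in 1 group alone, which entered the test only through that group, are set apart. In the Krt8 and Krt18 locus 14 of 22 tested regions were higher and 1 was lower, with a median difference of 0.8, and among the 18 above the floor in 2 or 3 groups 11 were higher and 1 lower. In the Krt19 locus 6 of 12 were higher and 1 lower, and 3 and 1 of the 9 above the floor in 2 or 3 groups. In the Krt14 locus 4 of 9 were higher and 2 lower, but all 4 higher calls and 1 of the lower ones were above the floor in 1 group alone. In the Krt7 locus 2 of 11 were higher and 4 lower, with a median of -0.31, and 1 and 3 of the 9 above the floor in 2 or 3 groups. These counts are to be read beside 22.1% higher and 30.1% lower of all tested regions. Of all regions above the floor in 2 or 3 groups, 20.7% were higher and 29.7% lower. The Krt7 counts lie near these shares. The difference between loci was not tested.

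**Figure D2:**
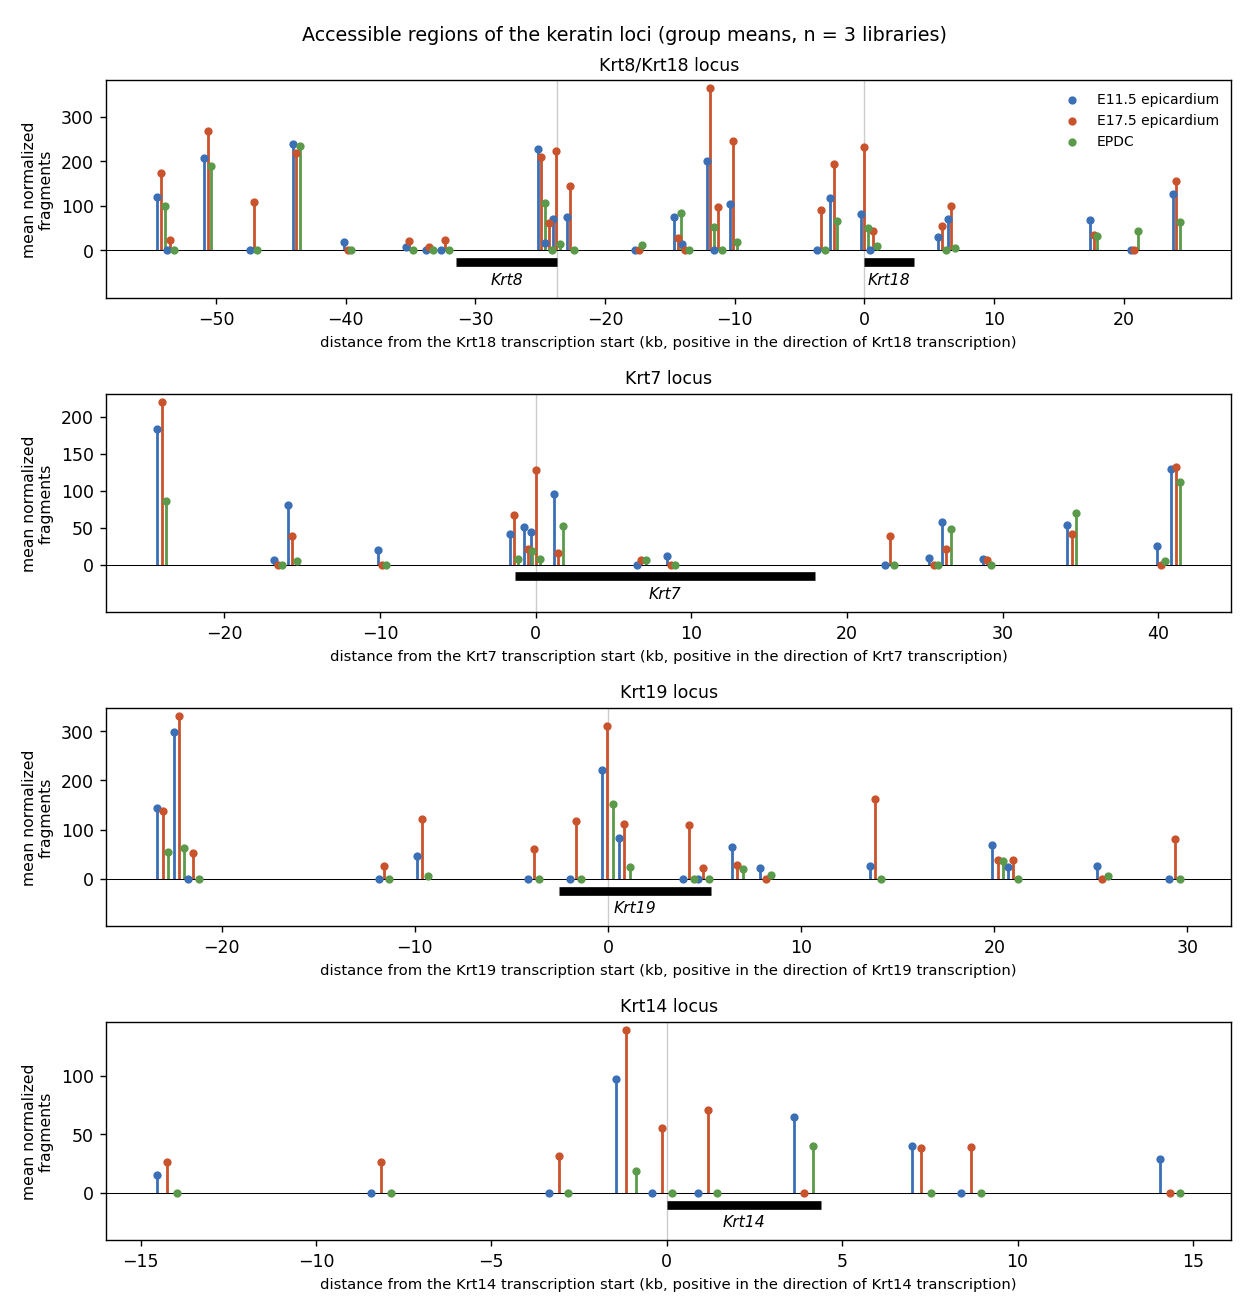
Mean normalized fragments of each region (y axis; n = 3 libraries a group) against distance from a gene start in kb (x axis; from Krt18 in the shared locus), with gene bodies as black bars and the 3 groups of a region drawn side by side. At Krt8 and Krt18 most of the tall E17.5 lines rise above those of E11.5, whereas several Krt7 regions are taller at E11.5, and EPDC lines are mostly the shortest.

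Including the Krt14 promoter, 11 regions (15.1%) had a summit in all 3 E17.5 libraries and in no other library, beside 2.98% of all regions. Among the strongest 3 were a pair within the Krt19 gene body as GENCODE draws it. The region 1.7 kb upstream of the main start, in the intron of a longer noncoding transcript, held 94.2, 146 and 114 normalized fragments at E17.5. The region 4.2 kb downstream of the start held 101, 110.0 and 116. No peak interval covered either site in the other 6 libraries, and the geometric means at E17.5 were 5.71-fold and 5.35-fold above the floor.

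Further regions called at E17.5 alone lay 23.4 kb downstream of the Krt8 start (95.9, 120.0 and 113 normalized fragments), 11.3 kb upstream of Krt18 (68.2, 114 and 113), 3.3 kb upstream of Krt18 (73.1, 101 and 99.8) and 29.3 kb downstream of Krt19, between genes (60.1, 93.1 and 87.4). The region 3.3 kb upstream of Krt18 was under a peak interval in 1 E11.5 and 1 EPDC library, and counted by any overlap its stage difference was 1.29 (adjusted p = 0.184). In the Krt14 locus, besides the promoter, a region 1.2 kb inside the gene held 66.6, 71.2 and 73.8 normalized fragments at E17.5 alone, and weaker ones lay 8.7 kb downstream (26.0 to 49.3) and 8.1 kb upstream (23.9 to 27.6). In the Krt7 locus the only such region, 22.7 kb downstream in an intron of Krt87, held 30.9, 49.3 and 34.3.

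A region with summits at both stages rose next to Krt19, inside its neighbour Krt15, another type I keratin. This region, 13.8 kb downstream of the Krt19 start in a Krt15 intron (chr11:100132035-100132535), held 29.4, 24.8 and 20.4 normalized fragments at E11.5, a mean of 163 with a lowest value of 155 at E17.5, and 0 in all EPDC libraries. The rise was 2.72 (SE 0.158, adjusted p = 3.23e-06). The Krt15 promoter itself had no summit in any library. A region 9.6 kb upstream of Krt19 rose as well, from 52.3, 43.6 and 44.2 to 117, 127 and 119 (difference 1.38, SE 0.13, adjusted p = 3.47e-05), with a summit in 1 EPDC library, at 16.8.

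Between Krt8 and Krt18, which are transcribed away from each other, 4 regions open at E11.5 rose at E17.5. The region 10.1 kb upstream of Krt18 went from 99.2, 118 and 94.1 to 237, 260.0 and 241 (difference 1.25, SE 0.222, adjusted p = 0.00129). The region 11.8 kb upstream of Krt8, named by the study as a Krt18 element, went from 180.0, 200.0 and 221 to 393, 369 and 332 (difference 0.87, SE 0.227, adjusted p = 0.0105). The region 2.4 kb upstream of Krt18 went from 122, 106 and 124 to 195, 183 and 201 (difference 0.72, SE 0.104, adjusted p = 0.000381), and by fold enrichment it changed sign. The element that the study names for Krt8, 1.0 kb upstream of its start, held 63.5 to 94.1 at E11.5 and 138 to 159 at E17.5 (difference 0.95, SE 0.161, adjusted p = 0.001).

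Some regions went the other way. A Krt7 intronic region 1.5 kb downstream of the start held 98.1, 90.2 and 99.7 normalized fragments at E11.5, whereas the E17.5 libraries held 0, 0 and 45.8, with 1 of those at 0 under a peak interval (difference -1.84, SE 0.282, adjusted p = 0.000555), while the promoter next to it rose. The element named for Krt7, 15.6 kb upstream in introns of Gm35853 and Gm671, fell from 83.9, 87.2 and 71.4 to 35.7, 38.3 and 43.7 (difference -1.04, SE 0.141, adjusted p = 0.000263). A region 3.9 kb inside Krt14 was called in all E11.5 libraries (66.5, 59.4 and 66.9) and in no E17.5 library (difference -1.65, SE 0.156, adjusted p = 3.59e-05), opposite in direction to the Krt14 promoter. A region 17.7 kb downstream of Krt18 fell from 67.6, 63.4 and 73.7 to 30.9, 33.8 and 36.4 (difference -1.02, SE 0.139, adjusted p = 0.000277).

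The remaining falls were a region 26.4 kb downstream of Krt7 over a Krt87 UTR (-1.1), 6.7 kb downstream of Krt19 (-0.96, adjusted p = 0.0171), and weak regions over exons of Krt9 and Krt88 (-0.48 and -0.31). Counted by any overlap, the Krt88 region, 40.2 kb downstream of Krt7, differed by -2.66 (adjusted p = 1.14e-05). The Krt19 region lost the call without E11.5 replicate 1 (-0.94, adjusted p = 0.0508) or replicate 2 (-0.88, adjusted p = 0.0614). Summits in all 3 E11.5 libraries and no other were found at 2 of 73 regions (2.74%), beside 3.75% of all regions. Of these, the Krt9 region, 14.4 kb downstream of the Krt14 start, held 27.2, 28.7 and 29.5 normalized fragments, and the other, 9.9 kb upstream of Krt7, held 15.9 to 24.8.

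**Figure D3:**
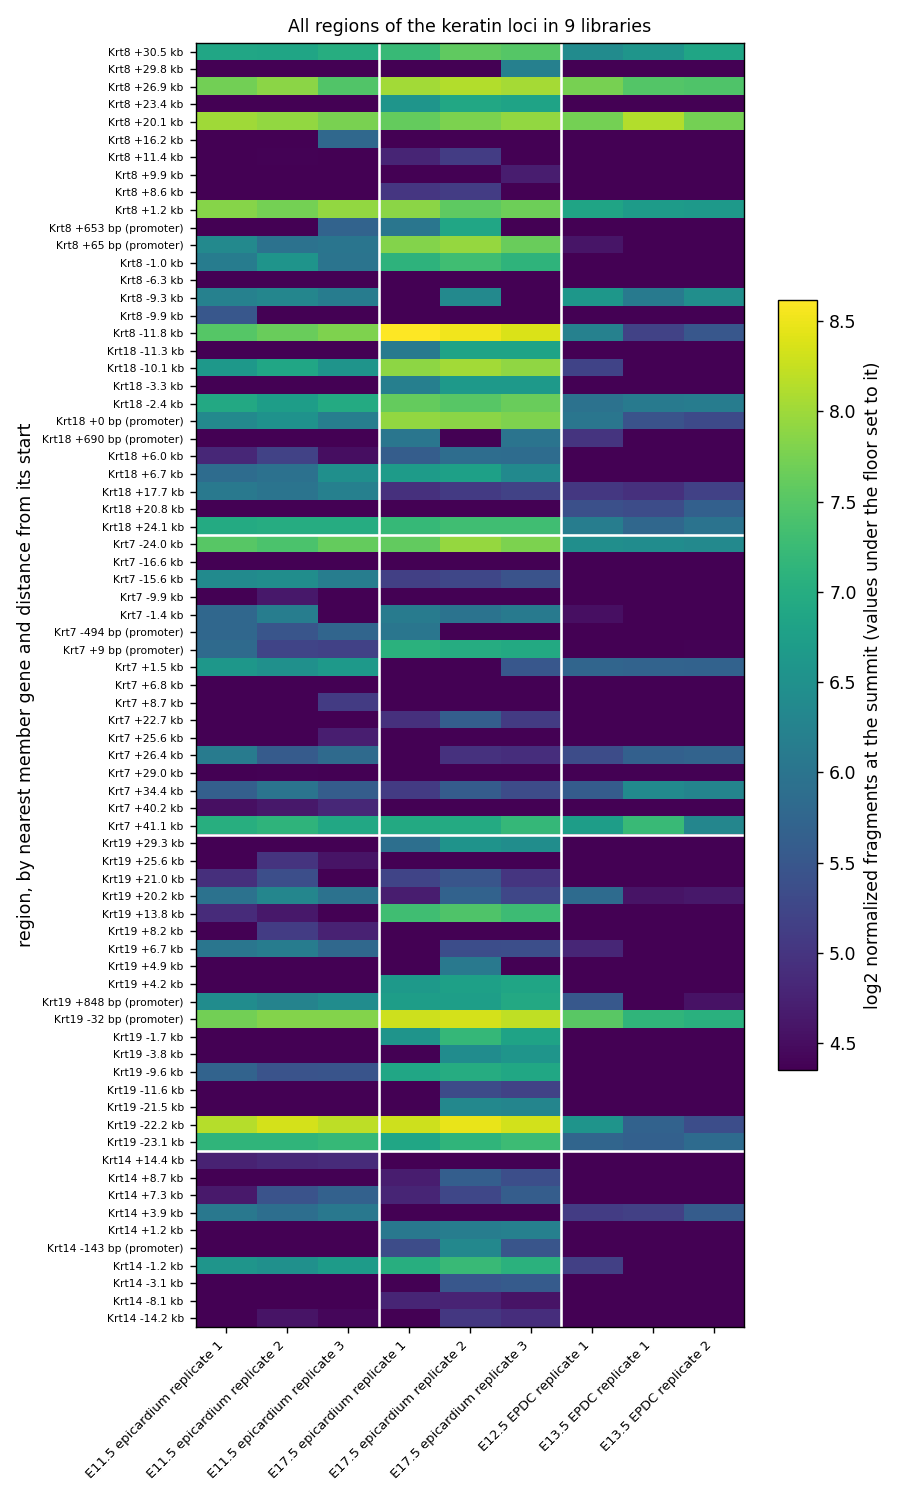
log2 normalized fragments (colour; values under the floor set to it) of all 73 regions (rows, by locus and distance from the nearest start) in 9 libraries (columns). Rows dark in all but the 3 middle columns are the regions called at E17.5 alone, and the rightmost 3 columns, the EPDC libraries, are the darkest.

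EPDCs were compared with epicardium to ask how the keratin loci stand in cells sorted as having left the epithelium. In EPDCs the loci were less accessible: 39 of 54 tested regions (72.2%) were lower than in epicardium, beside 32.6% of all tested regions, and 2 (3.7%) were higher, beside 25.4%. By log2 fold enrichment 29 were lower and 8 higher, and on both rank scales 34 were lower, with no share of all regions taken on these scales. Scaled to genome background, 39 were lower and 1 higher, beside 44890 lower and 17537 higher of all 115124 tested regions. Of the calls over all those regions, 28.1% were higher, against 43.9% with the main scaling. The median difference was -0.95, against -0.12 over all tested regions. Among the 16 regions above the floor in all 9 libraries, 12 were lower and 1 higher, beside 25.7% and 26.6%. Of the 39, 10 were regions called at E17.5 alone, which were also below the floor at E11.5. Among the 40 regions above the floor in libraries of 2 or 3 groups, 28 were lower and 1 higher, beside 29.6% and 24.0% of all such regions.

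Each stage was therefore also read on its own, with the same EPDC libraries in both. Against E11.5 epicardium 28 keratin regions were lower and 1 higher in EPDCs, beside 29.8% and 21.8% of all tested regions, and against E17.5 epicardium 36 were lower and 6 higher, beside 26.3% and 27.0%. Regions that entered the test through 1 group alone were not set apart in these counts. All those called at E17.5 alone are among the 36. The Krt9 and Krt88 exon regions, above the floor at E11.5 alone, are among the 28. The only region higher than E11.5 was called in EPDCs alone. Lower than both stages were 20 of 54 (37.0%), beside 11.7% of all tested regions. By locus, EPDCs were lower than epicardium in 11 of 12 Krt19 regions, 16 of 22 Krt8 and Krt18 regions, 6 of 9 Krt14 regions and 6 of 11 Krt7 regions. Without the regions above the floor in 1 group alone, these were 8 of 9, 13 of 18, 2 of 4 and 5 of 9. The share lower was 32.6% of all tested regions, and 29.6% of those above the floor in 2 or 3 groups.

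**Figure D4:**
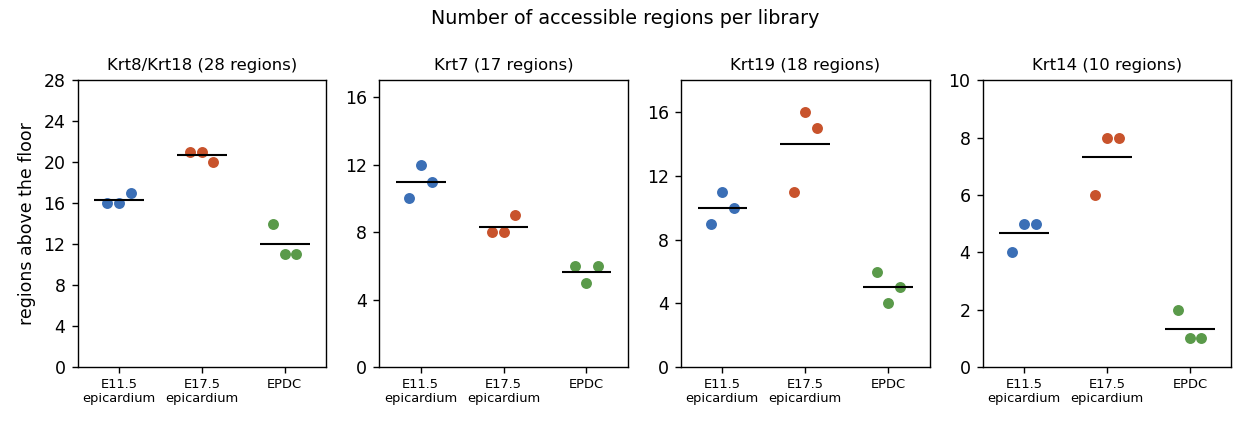
Number of regions above the floor of 20.4 normalized fragments (y axis, up to the number of regions in the locus) in each library (points) of the 3 populations; bars are means of 3 libraries. In every locus EPDC libraries hold the fewest, and E17.5 libraries exceed E11.5 libraries except in the Krt7 locus and for 1 library of Krt19.

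Over all loci, 28, 21 and 23 regions were above the floor in the EPDC libraries, whereas E11.5 libraries had 39, 44 and 43 and E17.5 libraries had 46, 53 and 52. Of all 184764 regions, 44.1% to 47.9% were above the floor in the EPDC libraries, 51.4% to 55.0% at E11.5 and 41.0% to 47.3% at E17.5, so that the order of the stages over all regions was opposite to that of the keratin regions. For the keratin regions the counts of EPDC libraries did not overlap with epicardial ones (two-sided exact permutation test, p = 0.0119, the smallest p that 84 assignments allow). The stages did not overlap either (exact permutation test, p = 0.1, the smallest p that 20 assignments of 3 against 3 allow), and this test could not pass 0.05. Both tests counted all keratin regions, which were defined from summits in the same lists. Among them, 11 had summits in every E17.5 library and no other, 2 in every E11.5 library and no other, and 1 in every EPDC library and no other. Such a region can count only for the group where it was called. These regions were not set apart, so no conclusion is drawn from the 2 p-values.

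The strongest distal region of Krt19 showed the largest EPDC difference of all 20 tested keratin regions with no called difference between stages. This region, 22.2 kb upstream (chr11:100168080-100168580), was the most accessible distal region of that locus, with 283, 324 and 292 normalized fragments at E11.5, 315, 356 and 322 at E17.5, and 94.3, 51.5 and 41.0 in EPDCs. The EPDC difference was -2.43 (SE 0.218, adjusted p = 1.87e-05), and the stage difference was 0.14 (SE 0.252, adjusted p = 0.686). Its neighbour 23.1 kb upstream held 142 to 148 at E11.5, 117 to 155 at E17.5 and 50.5 to 57.1 in EPDCs (EPDC difference -1.39, SE 0.106, adjusted p = 7.49e-06). By fold enrichment the sign changed. The gene body region 848 bp downstream of the Krt19 start was also lower in EPDCs (-1.77, SE 0.231, adjusted p = 0.000176).

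In the Krt8 and Krt18 locus the greatest EPDC losses were at the region 10.1 kb upstream of Krt18, with 37.0, 19.8 and 0 normalized fragments, the last under a peak interval (-2.68, SE 0.193, adjusted p = 5.32e-06), at the Krt8 promoter described above, at the region 11.8 kb upstream of Krt8, with 75.2, 36.7 and 45.3 (-2.43, SE 0.197, adjusted p = 1.06e-05), and at the region 1.0 kb upstream of Krt8, with no EPDC summit (-2.36, SE 0.14, adjusted p = 1.86e-06). The region 6.7 kb downstream of Krt18 fell to 0, 0 and 16.4 from 57.8 to 110.0 (-2.01, SE 0.166, adjusted p = 1.16e-05). A region in a Krt8 intron, 1.2 kb downstream of the start, held 106 ± 7.74 (SD, n = 3) in EPDCs, against 212 to 244 at E11.5 and 189 to 236 at E17.5 (EPDC difference -1.04, SE 0.0925, adjusted p = 1.74e-05). Within the same gene the promoter was at or below 24.2 in all EPDC libraries.

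In the Krt14 locus the region 1.2 kb upstream of the start was open in all 6 epicardial libraries, with 95.9, 90.2 and 104 normalized fragments at E11.5, and reached 130.0, 151 and 135 in the E17.5 libraries. In EPDCs it held 35.7, 0 and 20.3 (EPDC difference -2.24, SE 0.185, adjusted p = 1.2e-05). The stage difference, 0.52 (SE 0.214), missed the threshold (adjusted p = 0.0673). Epicardium at E11.5 thus had an open region beside Krt14 while the promoter had no summit. At Krt7, the region 24.0 kb upstream in an intron of Gm35853 held 171 to 195 at E11.5, 193 to 246 at E17.5 and 82.5 to 87.9 in EPDCs (-1.23, SE 0.0912, adjusted p = 6.48e-06), and the element named for the gene, 15.6 kb upstream, had a summit in 1 EPDC library, at 12.9 (-1.46, SE 0.122, adjusted p = 1.19e-05).

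Not all of the chromatin around these genes followed the keratin promoters. The region 20.1 kb downstream of Krt8 held 259, 242 and 216 normalized fragments at E11.5, 195, 220.0 and 244 at E17.5, and 212, 279 and 211 in EPDCs. Neither difference passed the test (-0.12, adjusted p = 0.479, for stage and 0.02, adjusted p = 0.879, for EPDCs). The region 41.1 kb downstream of the Krt7 start, over an exon of Krt88, held 79.7 to 151 in all 9 libraries with differences of 0.02 and -0.27 (adjusted p = 0.989 and 0.215). In all, 16 of 73 regions (21.9%) had a summit in all 9 libraries, beside 24.7% of all regions, and 4 (5.48%) had one in all 6 epicardial libraries and no EPDC library, beside 2.12%. These 4 were the Krt15 intronic region, the element 1.0 kb upstream of Krt8, a region 6.0 kb downstream of Krt18 and a region 7.3 kb downstream of the Krt14 start.

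Higher in EPDCs were 2 regions. The region 20.8 kb downstream of Krt18 (chr15:102048748-102049248), between genes, had summits of 42.1, 40.6 and 50.4 normalized fragments in EPDCs and none in any epicardial library, and no peak interval covered it there. The geometric mean in EPDCs was 2.17-fold above the floor. It was the only 1 of 73 regions (1.37%) with summits in all EPDC libraries and no other, beside 3.23% of all regions. The region 34.4 kb downstream of Krt7 held 48.4, 84.2 and 77.4 in EPDCs, 48.7 to 63.4 at E11.5 and 34.1 to 48.4 at E17.5 (0.54, SE 0.203, adjusted p = 0.0441). The groups overlapped, and leaving out E13.5 EPDC replicate 1 gave 0.39 with an adjusted p of 0.184, the largest change among 6 libraries whose omission lost the call. Scaled to genome background it was 0.22 (adjusted p = 0.479).

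The regions lower at E17.5 than at E11.5 did not all fall in EPDCs. The Krt7 intronic region 1.5 kb downstream of the start held 53.5, 52.5 and 52.0 in EPDCs, below E11.5 (-0.86, adjusted p = 0.0289) and above E17.5 (0.98, adjusted p = 0.0152). The Krt14 region 3.9 kb inside the gene held 34.4, 35.7 and 48.1, again between the stages (-0.72, adjusted p = 0.00408, from E11.5 and 0.93, adjusted p = 0.000711, from E17.5). The region 26.4 kb downstream of Krt7 was above E17.5 (0.83, adjusted p = 0.00894) and did not pass against E11.5 (-0.27, adjusted p = 0.333). The region 9.3 kb upstream of Krt8 held 75.2, 79.3 and 70.3 at E11.5, 0, 82.1 and 0 at E17.5, and 98.1, 69.3 and 87.5 in EPDCs. Only the difference of EPDCs from E17.5 passed there (1.37, adjusted p = 0.0325), while the difference between stages did not (-1.21, adjusted p = 0.0553).

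Smaller differences filled in the loci. The regions 30.5 and 26.9 kb downstream of Krt8 rose at E17.5 and were lower in EPDCs, by 0.52 and -0.56 at 30.5 kb (adjusted p = 0.0112 and 0.00335) and by 0.39 and -0.32 at 26.9 kb (adjusted p = 0.0229 and 0.0268). At 26.9 kb both calls were lost with single libraries left out (to 0.28 without E11.5 replicate 3 and -0.26 without E13.5 EPDC replicate 2), the stage difference changed sign on 4 other scales, and the EPDC difference turned to 0.46 by fold enrichment (adjusted p = 0.0298). Downstream of Krt18, the region at 6.0 kb rose by 0.94 (adjusted p = 0.00197), and the region at 6.7 kb rose by 0.53 (adjusted p = 0.0423), a call lost without 1 of 6 libraries (lowest 0.41 without E11.5 replicate 1), with a changed sign on 4 other scales. The region 24.1 kb downstream of Krt18 held 124 to 128 at E11.5, 148 to 159 at E17.5 and 54.5 to 71.4 in EPDCs (EPDC difference -1.16, adjusted p = 1.38e-05).

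Inside Krt18, a summit 690 bp from the start was present in 2 of 3 E17.5 libraries (65.0 and 63.4) and in the E12.5 EPDC library (31.9), while a peak interval covered the site in all 3 E11.5 libraries. Its stage difference of 1.1 (adjusted p = 0.0444) was lost without any 1 library but E17.5 replicate 2 (0.82 without E17.5 replicate 1). Upstream of Krt7, the region at 1.4 kb, at the start of a noncoding Krt7 transcript, held 54.5, 71.3 and 0 at E11.5, 63.0 to 69.9 at E17.5 and 22.9, 0 and 0 in EPDCs (EPDC difference -1.34, adjusted p = 0.00714). In the Krt19 locus the region 21 kb downstream was called in no EPDC library (-0.71, adjusted p = 0.015), and in the Krt14 locus the region 7.3 kb downstream, at 27.6 to 48.9 at E17.5, had no EPDC summit either (-0.89, adjusted p = 0.0114).

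Within the EPDCs, the E12.5 library often held the most of the 3. Of 23 keratin regions with a summit in all EPDC libraries, it was the highest at 13 (56.5%), beside 39.2% of all such regions, and the lowest at 5 (21.7%), beside 41.2%. At the Krt19 region 22.2 kb upstream, for example, it held 94.3 against 51.5 and 41.0 normalized fragments, and at the Krt18 promoter 65.0 against 43.6 and 39.5. With 1 library at E12.5 there is no test.

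The same reading was made for promoters of genes that work with keratins. Levels are the strongest summit within 1 kb of a start, and differences are those of the region with the highest mean level within 1 kb. Of 14 genes of desmosomes and plakins, 7 were higher at E17.5 and 1 lower, and 7 were lower and 1 higher in EPDCs, to be read beside the shares of all tested promoters given above (44.9% higher and 10.6% lower at E17.5, 15.6% lower and 25.7% higher in EPDCs). Evpl, which encodes the plakin envoplakin, changed in the same directions as the Krt8 promoter, from 134, 111 and 113 normalized fragments at E11.5 to 484, 522 and 458 at E17.5 and 21.7, 27.7 and 28.5 in EPDCs (stage 2.03, adjusted p = 5.84e-06; EPDC -3.22, adjusted p = 8.18e-08). Its partner periplakin, Ppl, had a summit in 1 E11.5 library (86.1) and held 152 to 192 at E17.5 (2.33, adjusted p = 0.00361). In EPDCs the Ppl promoter held 37.6 to 63.7, and the EPDC difference missed the threshold (-0.66, adjusted p = 0.213). The promoter of Eppk1, which encodes the keratin-binding epiplakin, rose by 0.83 at E17.5 and fell by 1.54 in EPDCs (adjusted p = 0.00044 and 4.12e-06). The desmosomal plakophilin Pkp3 rose by 0.85 (adjusted p = 0.00331) and had no EPDC summit. Dsc2, a desmosomal cadherin, was the exception, lower at E17.5 (-0.53, adjusted p = 0.00708) and higher in EPDCs (0.52, adjusted p = 0.0033).

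Other keratins were mostly uncalled. Of 27 such genes 8 promoters could be tested, but 4 of these were above the floor in 1 group alone: Krt9, Krt23 and Krt72 at E11.5 and Krt17 at E17.5. Of the other 4, Krt80 and Krt10 were higher at E17.5 and Krt222 was lower in EPDCs (-0.88, adjusted p = 0.00173), while Krt20 differed in neither test. Krt80 and Krt10 rose by 0.41 and 0.58 at E17.5 (adjusted p = 0.000784 and 0.00146), and for both the EPDC difference missed the threshold (0.04 and -0.1, adjusted p = 0.597 and 0.349). Krt5, the usual partner of Krt14, was uncalled at E17.5 and in EPDCs. Of 8 other intermediate filament genes 7 could be tested, of which 3 (beside 44.9% of all tested promoters) were higher at E17.5 and none lower, and 3 (beside 25.7%) were higher in EPDCs and none lower, by limma (Vim, 0.23; Des, 0.41; Nes, 0.66). In the same fit Vim passed against E11.5 (0.34, adjusted p = 0.00576) but not against E17.5 (0.12, adjusted p = 0.259), whereas Des and Nes passed against both. The study links MAF to Krt8 and Krt18, and TCF21 to Krt7. The promoter of Maf differed by 0.04 between stages (adjusted p = 0.763) and by -0.43 in EPDCs (adjusted p = 0.00206), and that of Tcf21 by 0.03 and 0.09 (adjusted p = 0.797 and 0.304).

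Markers of other cell types and of the epicardium were read in the same way. Beside the shares of all tested promoters (44.9% higher at E17.5, 25.7% higher and 15.6% lower in EPDCs), 2 of 9 epicardial and mesothelial markers were higher at E17.5 and 5 were lower in EPDCs, 1 of them Pdpn, which the sort used, with summed promoter levels of 2150 to 2260 normalized fragments at E11.5, 2510 to 2590 at E17.5 and 1360 to 1940 in EPDCs. Of those higher at E17.5, Msln was called at that stage alone (279 to 356) and so had to differ in both comparisons, and Aldh1a2 had a difference of 2.0 (adjusted p = 0.0475) at the region tested and of 0.81 by its strongest summit. Upk3b, a defining mesothelial gene, held 397 to 429 at E11.5, and in EPDCs it was highest in the E12.5 library and at 33.7 and 40.3 in the E13.5 libraries. Among 6 mesenchymal markers 4 were higher in EPDCs, and 2 were higher (Postn and Col3a1) and 1 lower at E17.5 (Col1a1, -0.57 at the region tested, although its strongest summit differed by 0.31 in the other direction), with summed levels of 838 to 925 at E11.5, 1040 to 1140 at E17.5 and 1160 to 1360 in EPDCs. Of 6 markers of other epithelia, which include Epcam and Cdh1, 2 (beside 44.9%) rose at E17.5 and 5 (beside 15.6%) were lower in EPDCs, with summed levels of 291 to 324, 348 to 406 and 217 to 264. Pecam1, Cdh5, Tie1 and Emcn of endothelium, Myh6 and Myl2 of cardiomyocytes, and Ptprc, Spi1 and Gata1 of blood had no promoter summit in any library, whereas Kdr, Tnnt2, Actn2, Nppa and Cd68 did. Summed levels over the lists were 148 to 165, 176 to 193 and 217 to 248 for endothelium, 337 to 375, 172 to 185 and 279 to 307 for cardiomyocytes, and 94.1 to 121, 182 to 203 and 0 to 77.3 for blood, in the order E11.5, E17.5 and EPDC. The part of these other cells in the keratin differences was not tested.

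The promoters with patterns most like those of the members were described by Pearson's r of log2 levels over the 9 libraries, among 15110 promoters that share these libraries and their scaling. For Krt8 they were Btc (0.998), Gnmt (0.995) and Eppk1 (0.995). For Krt7 they were Elf3 (0.997), Evpl (0.996) and Tmem190 (0.995), for Krt18 Zfp426 (0.995), Pla2g15 (0.992) and H2-DMb1 (0.986), and for Krt19 F11r (0.993), Adgrg1 (0.991) and Aqp1 (0.987). For Krt14 they were Urah (0.991), Hbb-bs (0.99) and C1s2 (0.971), a set that rests on 3 E17.5 libraries with a summit. The 9 points fall into 3 groups, so that high values are common. Among the members, r was 0.95 to 0.98 for the pairs of Krt7, Krt8, Krt18 and Krt19, and 0.72 to 0.78 for pairs with Krt14.

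Motif matches were counted in the full regions. AP-1 matches (TGANTCA) were in 25 of 73 keratin regions (34.2%), beside 22.8% of all regions, and in 15 of the 26 that rose at E17.5 (57.7%), beside 30.9% of all regions that rose. Of the 8 regions that fell at E17.5 1 held a match, beside 20.5% of all regions that fell. In 11 of the 26 the rise was at a region above the floor in 1 group alone, and these were not set apart. Among the 39 lower in EPDCs AP-1 was in 17 (43.6%), beside 32.7% of all regions lower in EPDCs. The MAF element (TGCTGA), which shares its last letters with the start of the AP-1 pattern and can overlap it, was in 29 keratin regions (39.7%), beside 39.0% of all regions, in 12 of the 26 that rose (46.2%), beside 36.8%, and in 18 of the 39 lower in EPDCs (46.2%), beside 41.3%. E-boxes (CAGCTG) were in 34.2% of keratin regions and 33.5% of all regions, GGAATG in 27.4% and 33.1%, AGATAA in 26.0% and 29.8%, and GGGCGG in 24.7% and 19.8%. Among the 26 that rose these were in 15.4%, 34.6%, 23.1% and 26.9%, beside 30.9%, 31.1%, 23.9% and 35.2% of all regions that rose. Among the 39 lower in EPDCs they were in 30.8%, 35.9%, 15.4% and 28.2%, beside 32.7%, 37.9%, 31.5% and 19.8%.

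The pair of Krt19 sequences 1.7 and 22.2 kb upstream carry GGAATG and an AP-1 match run together as GGAATGANTCA, a pattern noticed in the sequences printed above and then counted. It occurred in these 2 of 73 regions and in 0.346% of all regions. In the former the joined match follows a GATA match directly. The former was called at E17.5 alone and the latter in all 9 libraries, so the shared letters went with different patterns of accessibility.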

How the data were processed

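Peak lists from bulk ATAC-seq of 10 samples (9 lists) were used, with replicates that the labels call independent pools of hearts. By the study's methods and processing notes, the authors aligned reads to mm10, removed duplicate, multi-mapped, mitochondrial and blacklisted reads, and called peaks per list with MACS2 2.2.9.1 on whole fragments (q-value 0.01, all summits kept), so that a summit is a pile-up of fragments rather than of Tn5 cuts. The deposited columns give a fold enrichment (a linear ratio) over local background, −log10 p-values and −log10 q-values. Nothing was normalized between libraries.

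Fragments at each summit, a whole number, were solved from its fold enrichment with its −log10 p, for 99.96 to 100% of summits. Overlapping summits were merged by iterative removal, the highest depth-normalized score first. Size factors (0.6155 to 2.559) were medians of ratios over 45564 regions with a summit in all lists. The floor was the highest of the libraries' 5th percentiles of summit height, and it limits what low libraries can show. limma 3.58.1 (R 4.3.3, trend and robust) fitted 3 group means, with a threshold of 0.05 on adjusted p. In data simulated for E17.5 against E11.5 over 115124 regions, 41.0% of differences of 1 and 80.0% of differences of 2 (log2) were found. Only 100 regions of each size were changed, all above the median level. In the data far more regions were called, so these rates do not give the share of real differences found. Starts came from GENCODE M21, and promoters lay within 1 kb of them. RefSeq's promoter table matched the genome at 4 members.

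The members, lists and tests were chosen with earlier results of these data known. Regions named were the highest promoter region per gene, the 3 strongest distal regions per locus, called regions up to 8 per direction and locus, and 3 elements the study names. Alternatives covered scaling, floor, filter, overlap, rank and enrichment scales, single libraries left out, a replicate block and an exact permutation test. The joined motif was added after sequences were seen. Python 3.11.15, numpy 2.4.6, pandas 2.3.3, scipy 1.17.1 and matplotlib 3.10.9 were used.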

Additional observations from a re-analysis of the deposited data

How the results depend on the processing

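The count of keratin regions higher at E17.5 was 26, and was within 1.5 times of that except on the rank percentile scale (16) and by fold enrichment (14). The count higher in EPDCs was 2, and became 4 with equal numbers of summits or the depth-normalized score, 8 by fold enrichment, and 1 over genome background or with no filter. Leaving out 1 library each gave 24 to 28 higher and 7 to 9 lower at E17.5, and 1 to 3 higher and 35 to 41 lower in EPDCs. Scaling to genome background changed the part of all calls, over all tested regions, that were higher. It moved from 42.4% to 55.5% of calls for stage and from 43.9% to 28.1% for EPDCs, with a shift of the median of -0.14 for EPDCs. By fold enrichment the sign changed at the Krt19 promoter (-0.41 for stage, 0.62 for EPDCs), and for EPDCs at the regions 23.1 kb upstream (0.39) and 6.7 kb downstream (0.34) of Krt19, 494 bp upstream of Krt7 (0.33), 26.9 kb downstream of Krt8 (0.46) and 2.4 kb upstream of Krt18 (0.17). For stage it changed at the last of these (-0.12), at the Krt8 region (-0.49) and 6.7 kb downstream of Krt18 (-0.69). With the depth-normalized score the latter 2 regions gave -0.05 and -0.15. In percentile points, the Krt19 promoter gave -2.21, the Krt8 region -3.14 and the Krt18 region -6.81, and with equal numbers of summits -0.68, -1.81 and -0.84, while the Krt7 region 40.2 kb downstream gave 0. The cause was not tested.

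Of 68 named differences, 9 lost the threshold in at least 1 omission of a library. With the replicate block, 25 regions were higher and 6 lower at E17.5, and 8 named differences missed the threshold. By the two-sided exact permutation test in place of limma, 16 of 36 EPDC differences missed 0.05. Of these, 11 were regions above the floor in 1 group alone, and by the same exact test the others were 6.7 kb downstream of Krt19 (p = 0.0714), 34.4 kb downstream (0.0952) and 494 bp upstream (0.167) of Krt7, 26.9 kb downstream of Krt8 (0.119) and 17.7 kb downstream of Krt18 (0.179). For stage this test cannot go below 0.1. The same-numbered libraries correlated at 0.01, 0.06 and -0.06, so the numbers do not pair them. For EPDCs the 2 compared groups are all 9 libraries, so that no separate fit was run. The floor came from the E12.5 EPDC library, whose 5th percentile was the highest, and levels under 20.4 normalized fragments were not told apart in the tests.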
